A study of Mus musculus with 2 samples.

Results

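The ephrin ligands are 8 genes, Efna1 to Efna5 and Efnb1 to Efnb3, picked by name from the 43346 GENCODE genes measured in each library, and all 8 were found in both libraries. Total RNA longer than 200 nt was sequenced from 2 newborn pups of the strain B6NCrl on postnatal day 0, with no genotype or treatment named, each library being made from 10 ng of RNA of a single forebrain. Pup 1 is replicate 1 and pup 3 is replicate 2, and together they form 1 group, so no contrast between conditions exists. Both pups carry 1 donor identifier in the labels and their sex was not collected. Levels are given as TPM, in which reads are divided by transcript length and scaled to the same total in every library, so that genes can be compared.

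Ephrins are cell-surface ligands of the Eph receptor tyrosine kinases, and both partners stay on the membranes of touching cells. Ephrin-A proteins are held in the membrane by a GPI lipid anchor and bind mainly EphA receptors, whereas ephrin-B proteins span the membrane and bind mainly EphB receptors, with EphA4 also able to bind ephrin-B ligands. Contact signals forward into the receptor cell and in reverse into the ligand cell. In the forebrain the system is known for repelling growth cones, for mapping thalamic axons onto the cortex and for sorting migrating cells and blood vessels.

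The libraries held 40066386 and 40431595 expected counts in pups 1 and 3. The forebrain label was checked against marker genes: all 7 forebrain markers reached 1 TPM in each pup, led by Dlx1 at 120 and 87.0 TPM. Of 7 midbrain and hindbrain markers only Gbx2, which the thalamus also expresses, reached that level, at 18.5 and 7.65 TPM, and Hoxa2 and Hoxb2 had no counts. In bulk tissue, fewer cells of a type and less RNA per cell cannot be told apart.

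All 8 ephrin genes were expressed at 1 TPM or more in both pups, a level that 60.7% of protein-coding genes reached. Levels of 10 TPM or more in both pups were reached by 6 of them (36.3% of protein-coding genes), and 100 TPM or more by Efnb3 alone (7.25%). The median of the 8 mean levels was 24.6 TPM, beside 17.0 TPM over the 13030 protein-coding genes detected at 1 TPM or more in both pups.

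**Figure D1:**
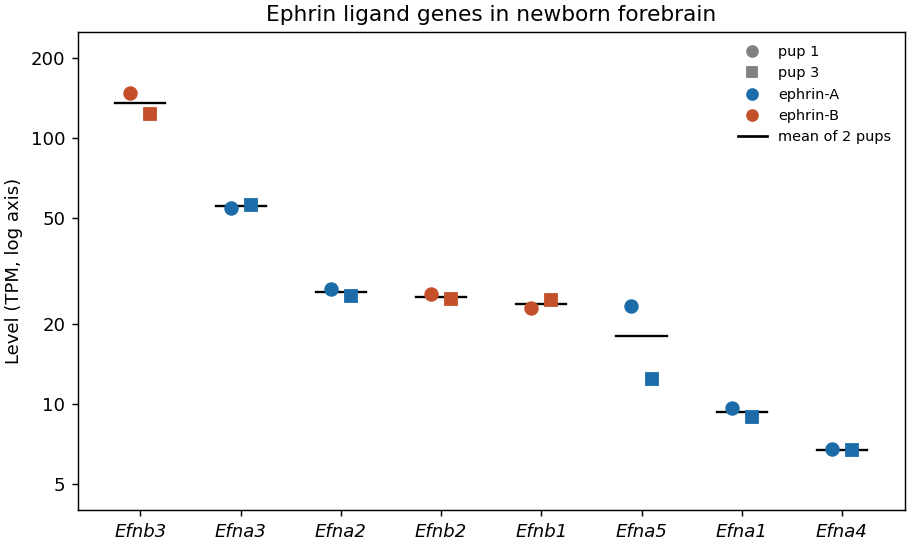
Level of each ephrin gene (TPM, log axis) in pup 1 (circles) and pup 3 (squares), with the mean of both as a bar; blue marks ephrin-A and orange ephrin-B genes. Efnb3 lies highest at 148 and 124 TPM, and the points of Efna5 lie farthest apart.

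The transmembrane ligands were led by Efnb3, the ephrin-B known for stopping corticospinal axons at the midline. Efnb3 had 148 TPM in pup 1 and 124 TPM in pup 3, a mean of 136 ± 17.2 TPM (SD, n = 2), from 11356 and 10735 counts. It ranked at percentile 90.7 of detected protein-coding genes and held 46.5% and 43.7% of the summed TPM of the 8 ligands. Efnb2, known from arterial endothelium and from neural progenitors and neurons, had 25.9 and 24.8 TPM (25.3 ± 0.764). Efnb1, the X-linked ephrin known from cortical progenitors, had 23.0 and 24.6 TPM (23.8 ± 1.12). Efnb1 was a little below Efnb2 in both pups, and both were several-fold below Efnb3.

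Ephrin-B proteins signal in reverse through a conserved tail inside the cell, which carries tyrosines that are phosphorylated and a PDZ-binding end. The last 99 coding bases before the stop codon, 33 codons, are shown because this stretch was nearly shared by genes whose levels differed several-fold. They come from the GENCODE M21 transcript sequences of the leading transcripts Efnb1-201 (chrX:99147426-99147524, plus strand), Efnb2-201 (chr8:8620591-8620689, minus strand) and Efnb3-201 (chr11:69555863-69555961, minus strand), with positions on mm10. Capitals mark the 77 bases identical in all 3 genes.
Efnb1: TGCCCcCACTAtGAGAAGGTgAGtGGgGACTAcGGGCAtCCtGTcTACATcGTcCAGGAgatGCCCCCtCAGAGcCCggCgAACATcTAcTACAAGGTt
Efnb2: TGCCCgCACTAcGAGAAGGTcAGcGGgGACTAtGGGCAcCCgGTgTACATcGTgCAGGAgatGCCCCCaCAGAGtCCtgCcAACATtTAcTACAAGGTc
Efnb3: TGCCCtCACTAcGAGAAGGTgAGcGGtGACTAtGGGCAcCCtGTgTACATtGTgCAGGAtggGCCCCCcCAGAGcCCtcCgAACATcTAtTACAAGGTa

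Identity over this stretch was 84.8% between Efnb1 and Efnb2, 82.8% between Efnb1 and Efnb3 and 84.8% between Efnb2 and Efnb3. All 15 differences between Efnb1 and Efnb2 lay at the third position of a codon, as did 14 of 17 between Efnb1 and Efnb3 and 12 of 15 between Efnb2 and Efnb3. Over the first 99 coding bases, aligned from the start codon without gaps, identity was 31.3% to 36.4%. The deposited counts of the 3 genes were whole numbers (within 0.005) in both pups, although expected counts take fractions where reads are divided between genes. In all, 6 of the 8 ligands had whole counts, the exceptions being Efna3 and Efna4.

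Among the GPI-anchored ligands Efna3 was highest, at 54.7 TPM in pup 1 and 56.2 TPM in pup 3 (55.4 ± 1.10), percentile 77.7. Efna2, a repellent ligand known from the visual midbrain, followed with 27.2 and 25.5 TPM (26.3 ± 1.20). Efna5, a ligand known for guiding thalamic and retinal axons, had 23.4 TPM in pup 1 but 12.5 TPM in pup 3 (18.0 ± 7.74), and these were the 2 most distant values of any member relative to its mean. Efna1, known from blood vessels, had 9.66 and 8.98 TPM (9.32 ± 0.481), from 331 and 348 counts. Efna4 was lowest at 6.75 and 6.74 TPM (6.74 ± 0.00707), from 252 and 285 counts, at percentile 27.6. Efna4 lay below every other ephrin gene in both pups.

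The order was judged within each library on TPM + 0.1, and a ratio passed as exceeding the spread between pups if its sign was the same in both and its mean log2 value was above 3 SD. The smallest p that an exact two-sided sign-flip test can give with 2 pups is 0.5, and no test was run. Efnb3 was 2.71 and 2.20 times Efna3 in pups 1 and 3 (log2 1.29 ± 0.21), and Efna3 was 2.01 and 2.20 times Efna2 (log2 1.07 ± 0.094). At the bottom, Efna1 was 1.42 and 1.33 times Efna4 (log2 0.46 ± 0.072). Those 3 of 7 neighbouring pairs passed. Efna2, Efnb2 and Efnb1 did not differ beyond their spread, with Efna2 at 1.05 and 1.03 times Efnb2 and Efnb2 at 1.12 and 1.01 times Efnb1.

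Of all 28 pairs of ligands, which share genes and so are not independent, 19 passed the 3 SD criterion, which is not a test. Efna5 was in 6 of the 9 that did not. Of these 6, the order turned between the pups for Efnb1 only, which was at 0.983 times Efna5 in pup 1 and at 1.96 times in pup 3, and the other 5 kept their order with a spread too wide to pass. Counts that are not divided by length give another picture of the middle of the list. Efnb2, with transcripts of 4238 and 4104 nt on average, took 66.4 and 69.1 CPM (counts scaled to library size only), whereas Efna2, with 2131 nt, took 34.3 and 36.0, although their TPM nearly matched.

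Summed over members, the ephrin-B class had 197 and 173 TPM and the ephrin-A class 122 and 110 TPM. The 3 ephrin-B genes thus outweighed the 5 ephrin-A genes 1.62-fold in pup 1 and 1.58-fold in pup 3 (log2 0.68 ± 0.028), more than the pup spread. This direction rested on Efnb3, which made up 75.2% and 71.5% of the ephrin-B sum. Without Efnb3 the ephrin-A class was the higher one, with a log2 ratio of B over A of -1.23 ± 0.11, an alternative added after the data were seen. Leaving out the highest gene of both classes, Efnb3 and Efna3, also turned the direction, at -0.29 ± 0.24, which did not exceed the spread. Within the ephrin-A class Efna3 held 44.9% and 51.2% of TPM, and Efna5 held 19.3% and 11.4%.

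The genes lie on 6 chromosomes, with positions on mm10. Efna1 (chromosome 3, 89271733 to 89281142), Efna3 (chromosome 3, 89313899 to 89322965) and Efna4 (chromosome 3, 89333390 to 89338028) all sit on the minus strand within 66.3 kb, with no other protein-coding gene between them. Their levels along this cluster were 9.32, 55.4 and 6.74 TPM, so the middle gene was 5.61 and 6.20 times Efna1 and 7.996 and 8.234 times Efna4 in pups 1 and 3. Beyond the cluster, the sugar transporter gene Slc50a1 had 30.2 and 30.6 TPM and lay 1162 bases from Efna1. Adam15, a membrane metalloprotease gene, had 49.0 and 41.7 TPM and lay 513 bases from Efna4. Efna3 overlaps the antisense gene Gm15998 (0.39 and 0.15 TPM) over 3469 bases, and Efna4 overlaps the antisense gene 4731419I09Rik (0.26 and 0.23 TPM) over 179 bases. Whether counting used strand is not stated in the labels or headers, so reads of these partners cannot be told apart.

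**Figure D2:**
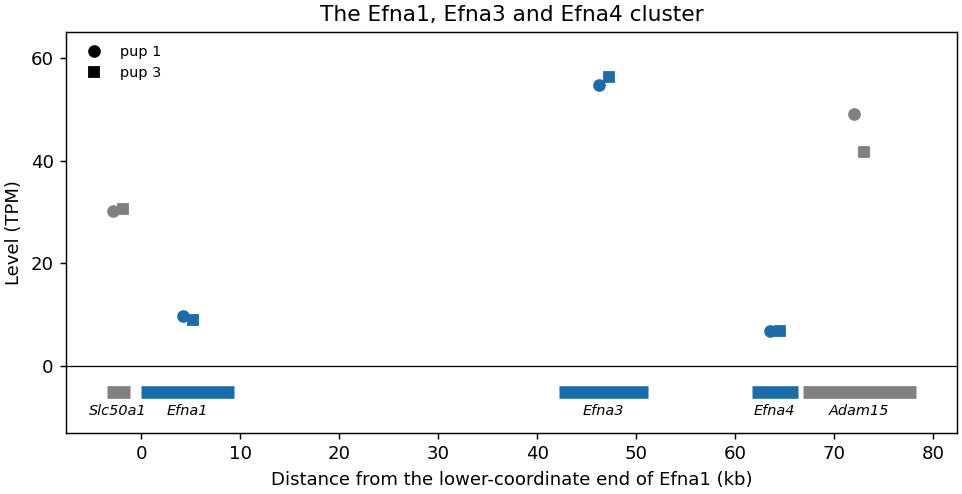
Levels (TPM) of the protein-coding genes along the Efna cluster in pup 1 (circles) and pup 3 (squares), above bars that show each gene's extent by distance from the lower-coordinate end of Efna1 (kb). Efna3 stands at 54.7 and 56.2 TPM between Efna1 and Efna4, which both lie under 10 TPM.

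The other members stand apart from one another. Efna2 lies on chromosome 10 (80179482 to 80190010), Efna5 on chromosome 17 (62604184 to 62881317), Efnb1 on the X chromosome (99136130 to 99148991), Efnb2 on chromosome 8 (8617434 to 8661242) and Efnb3 on chromosome 11 (69554092 to 69560205). Efna5 spans 277 kb, far more than Efnb2 at 43.8 kb, while the other 6 genes span 4.64 to 12.9 kb. The nearest protein-coding gene to Efnb3 is Wrap53, 1552 bases away, at 15.1 and 12.2 TPM. Arglu1, 3832 bases from Efnb2, had 173 and 125 TPM. Slc10a2, 3512082 bases away on the other side of Efnb2, was listed at 0 in both pups. Efna5 has its neighbours Fbxl17 (9.34 and 7.92 TPM) and Nudt12 (2.17 and 0.98 TPM) 176134 and 3590811 bases away.

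Promoter windows from 250 bases before to 50 bases after each start came from RefSeq (GRCm38.p6) for 7 members, with 9 windows in all, and Efnb3 had no entry. A GC content above 55% with a ratio of observed to expected CpG above 0.65 was found in 7 of the 9 windows, and in 27.9% of the 32851 windows of the same length. The windows of Efna4 and Efnb1 were the exceptions, with ratios of 0.476 and 0.527. Efna5 had the most CpG dinucleotides, 38, at a ratio of 1.10, against a median of 7 over all windows. The letters TATAAA, searched on both strands, occurred in the window of Efnb2 only, and in 13.6% of all windows. No relation to level is drawn from these matches.

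Transcript shares are the deposited percent of a gene's TPM that each transcript takes, which are model estimates because overlapping transcripts share reads. The tables held 14 transcripts of the 8 genes. For all 8 genes the leading transcript did not differ between the pups, and it coded for protein. Efna2, Efna4 and Efnb3 have 1 transcript each in the annotation used. Elsewhere the leading transcript held from 95.5% ± 0.0354 (Efna1-201) to 99.5% ± 0.177 (Efna5-201), with Efnb2-201 at 97.7% and 94.0% in pups 1 and 3, Efna3-201 at 96.5% and 100%, and Efnb1-201 at 98.32% and 98.99%. No other transcript reached 10% in either pup.

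The minor coding transcripts Efna1-203 and Efna5-202 each lack 1 internal exon of the leading transcript. These exons are shown because the annotated transcripts differ there. Both of these exons have a length divisible by the codon size. The first is exon 3 of 5 of Efna1-201, 66 bases, absent from Efna1-203 (chr3:89272957-89273022, minus strand, mm10). The other is exon 4 of 5 of Efna5-201, 81 bases, absent from Efna5-202 (chr17:62613316-62613396, minus strand, mm10). The letters are all lower case because no part is singled out.
Efna1 exon: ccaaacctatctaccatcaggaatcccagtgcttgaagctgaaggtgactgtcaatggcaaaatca
Efna5 exon: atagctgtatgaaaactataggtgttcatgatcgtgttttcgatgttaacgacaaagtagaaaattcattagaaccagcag

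Efna1-203, without exon 3, held 4.48% and 4.43% of Efna1 in pups 1 and 3, from 14.0 and 14.6 counts. Another coding transcript, Efna1-202, which lacks the 92 coding bases of exon 1, had 0 counts in both pups, and 1.65% and 1.44% by posterior mean TPM. Efna5-202, without exon 4, held 0.39% and 0.64% of Efna5, from 1.22 counts in each pup. Nearly all of the gene's level was assigned to Efna5-201, at 23.3 and 12.4 TPM, and the gap between the pups lay in that transcript. Efna5-202 is annotated at only 643 nt, against 4032 nt for Efna5-201, so its share does not measure how often exon 4 is left out. Efnb2-202, a shorter coding transcript that lacks 93 bases of exon 3, held 2.34% and 6.00%, from 8.33 and 23.1 counts. The same limit holds for its share, as it has 652 nt against 4324 nt for Efnb2-201. These minor shares rest on few counts, and the deposited interval of Efna1-203 in pup 1 ran from near 0 to 1.69 TPM.

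Between the pups, no ephrin gene reached a 2-fold ratio, which 5.45% of the 14985 genes of mean TPM 1 or more did. None did after TMM scaling (2.02% of genes) or DESeq2 size factors (1.93%), which both adjust for the make-up of the libraries. Efna5 came closest, with pup 3 at 0.535 times pup 1 (log2 -0.90), followed by Efnb3 at 0.836 times. The other 6 ligands lay between 0.930 times (Efna1) and 1.07 times (Efnb1). At 1.5-fold, Efna5 was the only member past the threshold, as were 21.4% of all genes; it also passed after TMM scaling, as did 10.8%. The deposited intervals of the pups did not overlap for Efna5 (22.0 to 24.0 TPM against 11.6 to 13.0) and Efnb3 (142 to 147 against 119 to 123), nor did they for 53.6% of genes. These intervals lie around the posterior mean, which for Efnb3 was 145 and 121 TPM, below its TPM in both pups.

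Most genes were lower in pup 3 on TPM, with a median log2 ratio of -0.27 and 80.4% of genes below 0, and the ligands have to be read against that shift. Relative to it, Efnb3 lay at 0.01 and Efna5 at -0.64, while the other 6 lay 0.16 to 0.36 above. On TPM 6 of 8 ligands were lower in pup 3. After TMM scaling, which brought the median of all genes to 0.01, only Efna5 was lower (0.649 times), and Efna3 and Efnb1 were 1.29 and 1.31 times as high in pup 3; size factors from DESeq2 gave the same count. Of all 14985 genes, 9.99% lay as far from the median as Efna5 or farther on TPM and 8.76% after TMM scaling. There is 1 library per pup, so these ratios have no replicate check.

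**Figure D3:**
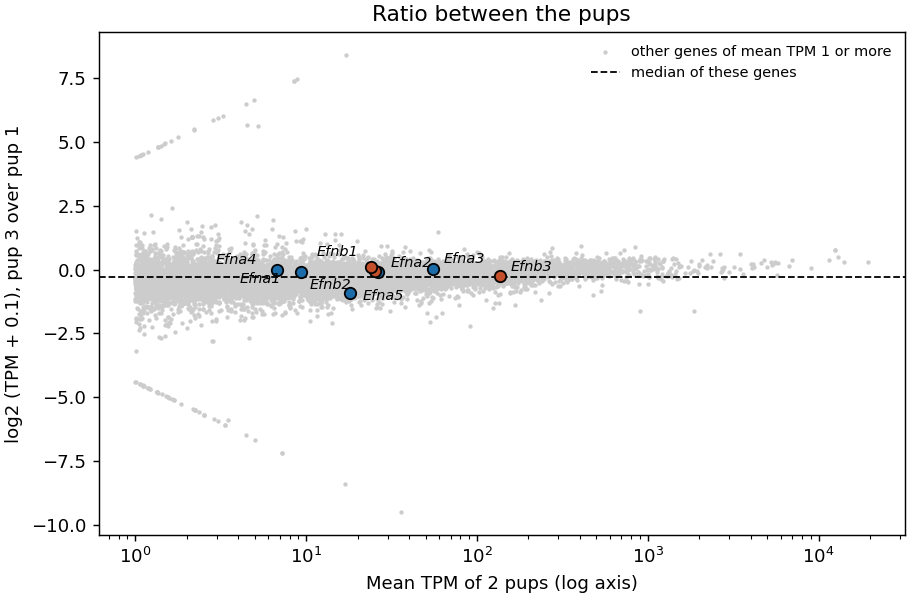
Ratio of pup 3 to pup 1 (log2 of TPM + 0.1) against mean TPM (log axis) for genes of mean TPM 1 or more (grey), with ephrin-A genes in blue and ephrin-B genes in orange; the dashed line is the median of the grey genes, -0.27. Efna5 lies at -0.90, below the other 7 ligands.

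The length of a gene moved with this ratio. Genes under 10 kb had a median log2 ratio of -0.11, those of 10 to 50 kb -0.26, those of 100 to 200 kb -0.46 and those of 200 kb or more -0.56. Of the 881 genes of 200 kb or more, 19.0% were as low as Efna5 or lower, against 9.78% of those of 100 to 200 kb and 5.86% of those of 50 to 100 kb. The share was 4.31% for genes of 10 to 50 kb, where Efna2, Efnb1 and Efnb2 belong. It was 6.60% for those under 10 kb, where 4 of the ligands belong. Median ratios also differed by transcript length, from 0.05 for transcripts under 1 kb to -0.50 for those of 4 kb or more, a class that holds Efna5 at -0.90 and Efnb2 at -0.06. The part of length in the Efna5 ratio was not tested.

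**Figure D4:**
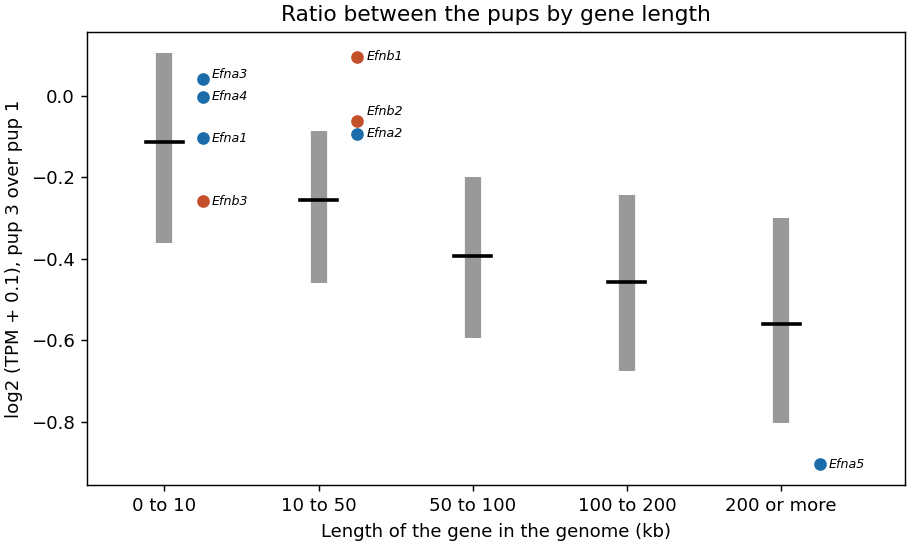
Ratio of pup 3 to pup 1 (log2 of TPM + 0.1) by the length of the gene in the genome (kb), with black bars for the median and grey bars for the middle 50% of genes of mean TPM 1 or more, and the ephrin genes as dots (blue, ephrin-A; orange, ephrin-B). The medians go from -0.11 for genes under 10 kb to -0.56 for those of 200 kb or more, where Efna5 lies at -0.90.

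Most markers of the diencephalon were, as Efna5 was, lower in pup 3, in lists chosen with earlier results known. Of 7 thalamic markers 6 were lower in pup 3 and the summed level was 365 TPM in pup 1 and 157 TPM in pup 3, with Tcf7l2 at 243 and 93.1 TPM. Without Tcf7l2, the highest, the sums were 122 and 64.0 TPM. The markers differed among themselves, from Lhx9 at 23.0 and 5.26 TPM to Prkcd at 16.8 and 15.8 TPM and Cacna1g at 4.70 and 4.90 TPM. Of 6 hypothalamic markers 6 were lower in pup 3, with summed levels of 177 and 76.6 TPM and Avp at 157 and 69.0 TPM. On TPM 80.4% of all genes were lower in pup 3. After TMM scaling, where 49.1% were, the counts were again 6 of 7 and 6 of 6, with Prkcd in place of Cacna1g as the thalamic exception. Cortical projection neuron markers summed to 407 and 524 TPM, a gap that lay in Neurod6 at 206 and 329 TPM: the sums without it were 201 and 195 TPM, and 3 of the 6 markers were lower in pup 3. Striatal markers summed to 321 and 272 TPM, and 5 of 5 were lower in pup 3 on TPM, or 3 of 5 after TMM scaling. The part of all these markers in the ratio of Efna5 was not tested.

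Markers of other cell types in which ephrins are known were compared in the same way. The 5 endothelial markers summed to 142 TPM in both pups, or to 33.3 and 28.0 TPM without Cldn5, the highest, and the 4 arterial markers to 19.7 and 18.8 TPM, led by Gja4 at 13.3 and 13.1 TPM. Efnb2, which arteries express, had 25.9 and 24.8 TPM, and most other ligands also differed little between the pups. The relation of Efnb2 to the arterial markers was not tested. Radial glia markers summed to 2765 and 2833 TPM, but to 506 and 401 TPM without Fabp7, and markers of immature neurons to 10027 and 10190 TPM, but to 3717 and 3165 TPM without Stmn1. In each of the radial glia and immature neuron lists 3 of 4 markers were lower in pup 3 on TPM, as were 80.4% of all genes. After TMM scaling 2 of 4 were lower in each list, beside 49.1% of all genes. Microglial markers summed to 120 and 118 TPM, markers of oligodendrocyte precursors to 147 and 125 TPM and those of meninges and fibroblasts to 90.7 and 112 TPM, or 49.6 and 45.8 TPM without Dcn. On TPM 4 of 4 markers of oligodendrocyte precursors and 3 of 4 microglial markers were lower in pup 3. After TMM scaling these counts were 3 of 4 and 1 of 4. Of these 4 meningeal and fibroblast markers only Col1a1 was lower in pup 3, at 37.6 and 27.6 TPM. Lum (9.69 and 15.4 TPM) and Foxc1 (2.39 and 2.81 TPM) were higher there, as was Dcn.

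The receptors were measured beside the ligands. Of protein-coding genes, 60.7% had 1 TPM or more in both pups, and the detected ones had a median of 17.0 TPM. Of 9 EphA genes, 7 had 1 TPM or more in both pups, with a median of 6.85 TPM. By the mean, Epha5 was highest, at 68.3 and 33.0 TPM (50.7 ± 24.9), followed by Epha4 at 50.6 and 37.9 TPM and Epha7 at 49.9 and 36.7 TPM. In pup 3 both Epha4 and Epha7 were above Epha5. Epha2 was lowest by the mean at 0.34 and 0.27 TPM, although Epha1 was lower in pup 3 at 0.17 TPM. All 5 EphB genes had 1 TPM or more in both pups, with a median of 8.45 TPM. In order of the mean, Ephb6, whose kinase is inactive, had 27.9 and 28.9 TPM, Ephb1 30.1 and 22.3 TPM and Ephb2 9.30 and 7.60 TPM. Ephb4 was lowest by the mean at 4.24 and 2.91 TPM, although Ephb3 was lower in pup 3 at 2.47 TPM. In pup 1 Ephb1 was above Ephb6. On TPM a 2-fold ratio between the pups was reached by 5 of the 14 receptors, namely Epha1, Epha5, Epha6, Epha10 and Ephb3, all lower in pup 3, beside 5.45% of genes of mean TPM 1 or more. After TMM scaling 2 of these stayed past 2-fold, Epha1 and Epha6, beside 2.02% of genes, and Epha1 was below 1 TPM in both pups.

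**Figure D5:**
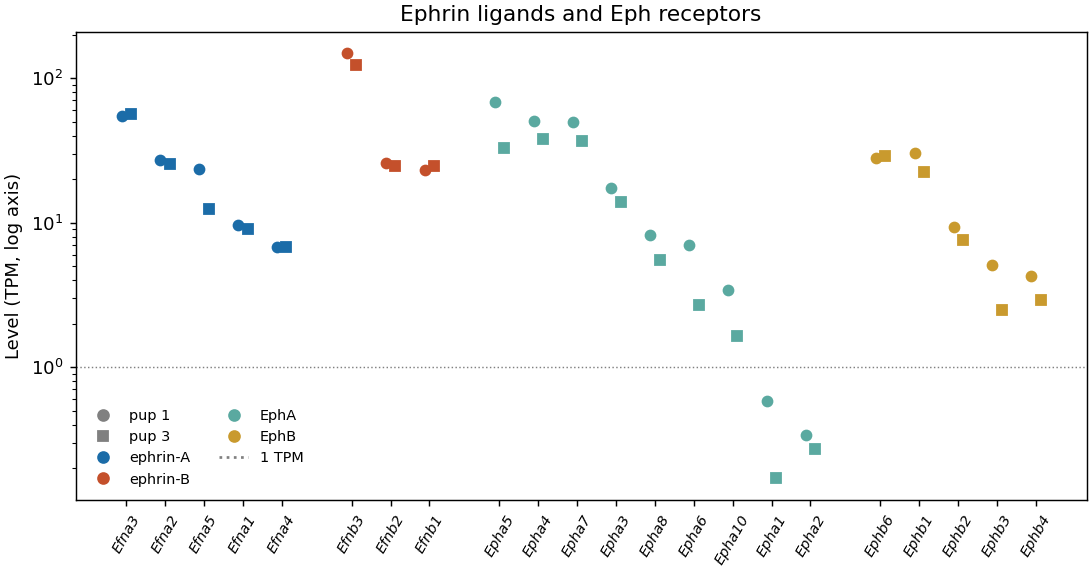
Levels (TPM, log axis) of the ephrin-A, ephrin-B, EphA and EphB genes in pup 1 (circles) and pup 3 (squares), each class in order of mean level; the dotted line is 1 TPM. Efnb3 at 148 and 124 TPM lies above all 14 receptors, and Epha1 and Epha2 lie below 1 TPM.

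Ligands and receptors stood in different proportion in the 2 classes. The summed ephrin-B level was 2.57 and 2.70 times the summed EphB level in pups 1 and 3 (log2 1.40 ± 0.050), more than the pup spread. This direction too rested on Efnb3: without it, in an alternative added after the data were seen, ephrin-B was at 0.638 and 0.770 times EphB (log2 -0.51 ± 0.19), which did not exceed the spread. The summed ephrin-A level was 0.591 and 0.834 times the summed EphA level (log2 -0.51 ± 0.35), a ratio that did not exceed the spread, as EphA genes summed to 206 TPM in pup 1 and 132 TPM in pup 3. Sums of TPM count transcripts, not protein on the membrane.

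Of 22 genes that carry the signal into the receptor cell, 22 had 1 TPM or more in both pups, beside 60.7% of protein-coding genes. Their median of 14.9 TPM lay below the 17.0 TPM of detected protein-coding genes. The small GTPase genes were highest, with Cdc42 at 1059 and 1040 TPM, Rac1 at 334 and 306 TPM and Rhoa at 234 and 197 TPM. The phosphatase gene Inppl1 was lowest by the mean at 3.19 and 2.97 TPM, although Abl2 was lower in pup 3 at 2.29 TPM. For reverse signalling through ephrin-B tails, 16 of 18 genes reached 1 TPM in both pups, with a median of 18.2 TPM. Sdcbp (syntenin), a PDZ protein, had 148 and 160 TPM, the Src-family kinase gene Fyn 74.2 and 62.4 TPM, the PDZ protein gene Pick1 64.4 and 51.5 TPM, and Cnksr1 0.15 and 0.11 TPM.

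Ephrin-A proteins have no part inside the cell and are known to signal through co-receptors. All 5 co-receptor genes had 1 TPM or more in both pups, beside 60.7% of protein-coding genes. Their median of 4.47 TPM lay at percentile 19.7 of detected protein-coding genes. Ntrk2 (TrkB) had 57.8 and 41.6 TPM, Ntrk3 20.2 and 10.6 TPM, Ngfr (p75) 5.23 and 3.72 TPM and Ret 2.16 and 1.17 TPM. The 5 GPI transamidase genes, which attach the anchor, had a median of 59.8 TPM, at percentile 79.2. They ranged from Gpaa1 at 89.0 and 77.9 TPM, Pigt at 81.0 and 75.4 TPM and Pigs at 66.6 and 53.0 TPM to Pigk at 38.9 and 33.5 TPM. Of 12 genes for proteases that cut ephrins or Ephs, 11 had 1 TPM or more in both pups (median 11.7 TPM, percentile 40.4). The gamma-secretase subunit genes Psenen (114 and 126 TPM) and Ncstn (81.5 and 64.2 TPM) were highest and Rhbdl2 lowest at 0.74 and 0.61 TPM.

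Other guidance ligands give a scale for the ephrins, described side by side with no test, since genes are not replicates. Of protein-coding genes 60.7% had 1 TPM or more in both pups, with a median of 17.0 TPM over those detected. The 8 ephrin genes all passed 1 TPM in both pups with a median of 24.6 TPM. Of 20 semaphorin genes 19 did, with a median of 8.76 TPM, the highest being Sema6a at 29.9 and 18.0 TPM, Sema6c at 24.5 and 19.9 TPM and Sema4a at 22.3 and 15.9 TPM, and the lowest Sema3g at 0.27 and 0.19 TPM. Of 8 measured netrin and slit genes 6 did, with a median of 5.12 TPM. The highest by the mean were Ntng1 at 27.8 and 9.54 TPM, Slit1 at 11.3 and 6.91 TPM and Ntng2 at 7.43 and 6.71 TPM, although Slit2 was above Ntng2 in pup 1 at 8.65 TPM. Ntn5 was lowest by the mean at 0.41 and 0.66 TPM, although Ntn4 was lower in pup 3 at 0.33 TPM. No gene of these other families reached the level of Efnb3 or of Efna3 in either pup.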

How the data were processed

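Total RNA libraries from the forebrains of 2 pups were used. The authors deposited gene and transcript tables on mm10 with GENCODE M4, per the deposited notes; the aligner, the quantifier and whether counting was stranded are not given in the sources used. Per the file headers, the deposited columns are expected counts (shared reads divided), TPM, posterior mean TPM with interval bounds of unstated level, read as an interval signal, and isoform shares in percent. GENCODE M21 (GRCm38, the same build) supplied symbols and positions, matched without version for 42462 of 43346 genes.

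Means and SDs of TPM, within-library log2 ratios (TPM + 0.1) and pup ratios were computed with Python 3.11.15, numpy 2.4.6, pandas 2.3.3 and matplotlib 3.10.9. TMM factors came from edgeR 4.0.16 (minimum count 10) on expected counts rounded to whole numbers in R 4.3.3, and size factors from DESeq2 1.42.0. Ratio code was tested on simulated data. Depth is 40066386 and 40431595 counts.

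Named genes were the members, neighbouring and overlapping genes, and the 3 highest and the lowest of each list; marker lists are given by sums and examples. A gene that this rule names is not reported here. Members and lists were chosen with earlier results of these data known. No gene of like pattern was sought, since 2 libraries give none. Alternatives were posterior mean TPM, other pseudocounts, scalings, thresholds and filters, and each pup alone.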

Additional observations from a re-analysis of the deposited data

How the results depend on the processing

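The median ligand level of 24.6 TPM (SD between pups 0.0354) became 24.2 with posterior mean TPM and 24.64 to 24.69 with each pup alone. The log2 ratio of ephrin-B over ephrin-A (0.68) was 0.66 with posterior mean TPM and 1.14 on CPM, and turned to -0.29 without the highest gene of each class and to -1.23 without Efnb3, the latter added after the data were seen. Also added then, ephrin-B over EphB (1.40) turned to -0.51 without Efnb3. Members past the pup-ratio threshold went from 0 at 2-fold to 1 at 1.5-fold, and were 0 under the other 5 settings. The lowest leading transcript share (95.5%) was 91.0% with posterior mean TPM and 94.0% to 95.5% with each pup alone. Neighbouring pairs beyond the spread numbered 3, or 4 on CPM; this could not be computed from 1 pup. Of 28 pairs, 25 kept their order on CPM and 27 in pup 1 alone. No paired analysis was possible because there is 1 group. Minor transcripts rest on few counts.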
